A study of Sorghum bicolor with 15 samples.

Results

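Transcripts of 3 genes that the study names as strigolactone genes were followed in sorghum roots: Sobic.001G341400 and Sobic.002G372100, both named NSP1, and Sobic.008G042800, named SMXL3. They are 3 of the 34129 genes in the table and were taken by their gene IDs. All 3 were among the 18473 genes with enough reads to be tested. Sobic.008G042800 came through that filter, above 1 CPM (reads scaled to a common library size) in 3 libraries or more, mainly on its SQR libraries. Of the 3 names, that of Sobic.001G341400 also stands in the study's gene annotation, whose closest rice protein is a nodulation-signaling pathway 1 protein of the GRAS family.

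Strigolactones are carotenoid-derived hormones that restrain shoot branching and are released by roots, where they attract arbuscular mycorrhizal fungi and also trigger germination of the parasitic weed Striga. NSP1 is a GRAS-family transcription factor found first in legumes, where it is needed for nodulation, and in Medicago and rice it is also needed for normal expression of strigolactone biosynthesis genes. SMXL proteins resemble Clp-type chaperones. In Arabidopsis and rice, several members of this family are repressors that are degraded when strigolactone or karrikin is perceived, whereas SMXL3 of Arabidopsis is known for its part in phloem formation.

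Whole roots of Shanqui Red (SQR), a Striga-susceptible variety, and SRN39, a Striga-resistant variety that carries the lgs1 deletion, were profiled in plants 28 and 35 d old. There were 4 biological replicates per group, but 3 for SQR at 35 d. All plants were grown without Striga in sand, with a diluted nutrient solution low in phosphate. Each genotype is represented by 1 variety, so the lgs1 deletion and the remaining genome of SRN39 cannot be told apart. In whole roots, fewer cells that express a gene and less RNA per cell cannot be told apart either.

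The libraries, made with 3′ mRNA-Seq, held 6369710 to 17304929 counts. LGS1 (Sobic.005G213600), the sulfotransferase gene lost in SRN39, lay between 18.8 and 81.0 CPM in the SQR libraries and between 0.455 and 1.63 CPM in the SRN39 libraries, as the labels require. Cell type markers of the root were not analysed here. Levels below are CPM on TMM-scaled library sizes. Differences are log2 fold changes from 1 edgeR quasi-likelihood model of the 4 groups, with Benjamini-Hochberg adjustment over all tested genes, and a gene was called at an adjusted p under 0.05.

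Both NSP1 genes were read higher in SRN39 roots and SMXL3 lower, though not every one of these differences was called. Sobic.001G341400 was 2.69-fold higher in SRN39 at 28 d and 7.12-fold higher at 35 d. Sobic.002G372100 was 2.43-fold higher at 35 d and was not called at 28 d (1.57-fold, edgeR adjusted p = 0.0805). SMXL3, with few reads, was 2.54-fold lower at 28 d and 3.24-fold lower at 35 d. Its call at 28 d was lost in 8 of 24 alternative fits. Of all tested genes, 17.4% were called for genotype at 28 d and 35.6% at 35 d. Of the 3 genes, Sobic.001G341400 rose between 28 and 35 d in SRN39, and none of the 3 was called for age in SQR. Among all tested genes, 30.9% were called for age in SRN39 and 2.6% in SQR. The levels of each library are shown in the plot of CPM by group.

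**Figure D1:**
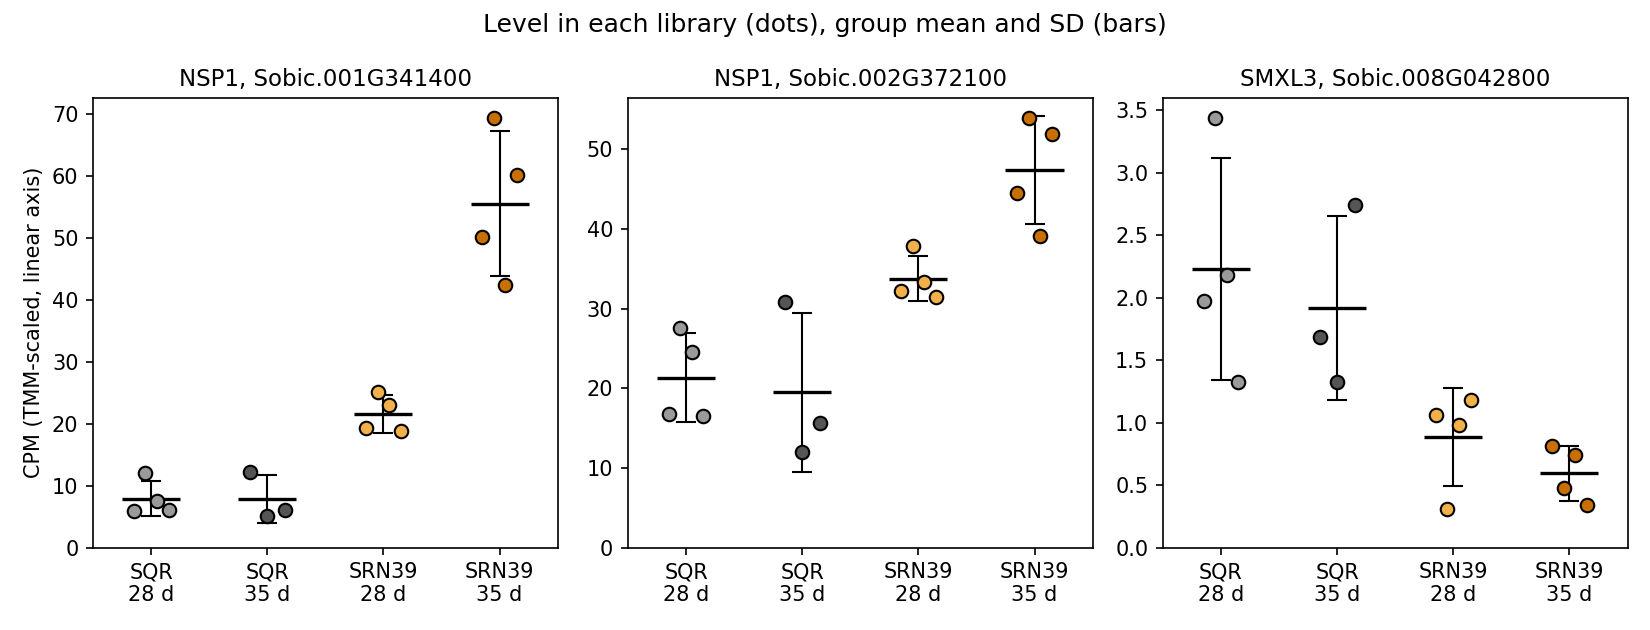
Level (CPM, linear axes that differ between panels) of the NSP1 genes Sobic.001G341400 and Sobic.002G372100 and of SMXL3 Sobic.008G042800 in each of the 15 libraries (dots), with the group mean (long bar) and SD (error bar). For each gene the SQR libraries and the SRN39 libraries do not overlap over both ages, which was so for 8.67% of tested genes, with SMXL3 on the opposite side to the NSP1 genes.

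Sobic.001G341400 was read at 5.92, 12.1, 7.50 and 6.13 CPM in SQR at 28 d and at 12.2, 5.07 and 6.05 CPM in SQR at 35 d. In SRN39 it was read at 19.4, 25.2, 23.0 and 18.8 CPM at 28 d and at 50.2, 69.3, 42.5 and 60.2 CPM at 35 d. Every SRN39 library was thus above every SQR library, and every SRN39 library of 35 d was above every one of 28 d, whereas the SQR ages overlapped. Of all tested genes, 8.67% did not overlap between the genotypes over both ages and 35.8% did not overlap between the SRN39 ages. These values rest on 37 to 160 counts per library in SQR and on 183 to 886 counts in SRN39.

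The group means of Sobic.001G341400 were 7.91 ± 2.87 (SD, n = 4) CPM in SQR at 28 d, 7.79 ± 3.89 (SD, n = 3) in SQR at 35 d, 21.6 ± 3.04 (SD, n = 4) in SRN39 at 28 d and 55.5 ± 11.7 (SD, n = 4) in SRN39 at 35 d. The genotype difference was 1.43 (SE 0.28, edgeR adjusted p = 0.0012) at 28 d, which is a fold of 2.69 with a 95% interval of 1.79 to 4.03. At 35 d it was 2.83 (SE 0.32, edgeR adjusted p = 3.6e-06), or 7.12-fold with an interval of 4.49 to 11.3. Of all tested genes, 17.4% were called for genotype at 28 d and 35.6% at 35 d, so the call alone does not set the gene apart. In size, 4.60% of tested genes had a larger log2 fold change at 28 d and 2.35% at 35 d.

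Between 28 and 35 d Sobic.001G341400 rose 2.58-fold in SRN39 (95% interval 1.75 to 3.80, log2 1.37, SE 0.27, edgeR adjusted p = 0.0014). Among all tested genes 30.9% were called for age in SRN39, and 5.10% had a larger log2 fold change. In SQR the age difference was -0.04 (edgeR adjusted p = 0.95), a fold of 0.973 with an interval of 0.627 to 1.51, where 2.6% of tested genes were called. The interaction, by which the age difference of SRN39 exceeds that of SQR, was 1.41 (SE 0.40, 95% interval 0.56 to 2.25, edgeR adjusted p = 0.0425), and 7.34% of tested genes were called for it. This call was near the threshold. It was lost when any 1 of 12 of the 15 libraries was left out (adjusted p up to 0.0944) and held without SQR replicate 1 at 28 d, SQR replicate 1 at 35 d or SRN39 replicate 3 at 35 d, and it was also lost with replicate number as a block (1.40, adjusted p = 0.0823), although the labels do not say that the numbers pair libraries.

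Sobic.002G372100, the other NSP1 gene, followed the same order with smaller steps. It was read at 16.8, 27.5, 24.5 and 16.6 CPM in SQR at 28 d and at 30.8, 12.02 and 15.6 CPM in SQR at 35 d. In SRN39 it was read at 32.3, 37.8, 33.4 and 31.5 CPM at 28 d and at 44.5, 53.9, 39.2 and 51.9 CPM at 35 d. The SRN39 libraries were again above all SQR libraries, but narrowly: the highest SQR library, replicate 1 at 35 d with 30.8 CPM, lay just under the lowest SRN39 library with 31.5 CPM.

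The group means of Sobic.002G372100 were 21.3 ± 5.54 (SD, n = 4) and 19.5 ± 9.98 (SD, n = 3) CPM in SQR at 28 and 35 d, and 33.8 ± 2.84 (SD, n = 4) and 47.4 ± 6.81 (SD, n = 4) CPM in SRN39. The genotype difference at 35 d was 1.28 (SE 0.27, edgeR adjusted p = 0.0015), or 2.43-fold with a 95% interval of 1.64 to 3.61, and 7.32% of tested genes had a larger log2 fold change. At 28 d it was 0.65 (SE 0.25, edgeR adjusted p = 0.081), or 1.57-fold with an interval of 1.10 to 2.25, and did not pass the threshold. It passed with DESeq2 (0.68, adjusted p = 0.0481), in a fit of the 28 d groups alone (0.67, edgeR adjusted p = 0.0186), and without SQR replicate 1 (adjusted p = 0.017) or 2 (adjusted p = 0.0361) at 35 d. The groups did not overlap at 28 d, which was so for 22.5% of tested genes.

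Age gave Sobic.002G372100 a log2 difference of 0.49 (SE 0.24, edgeR adjusted p = 0.13) in SRN39, 1.40-fold with an interval that begins at 0.986, and of -0.14 (edgeR adjusted p = 0.79) in SQR. The SRN39 ages did not overlap, as for 35.8% of tested genes. The interaction was 0.63 (edgeR adjusted p = 0.31). Without SQR replicate 1 at 35 d, the library with the highest SQR level of the gene, it was 1.13 (edgeR adjusted p = 0.0221) and the age difference in SRN39 passed as well (adjusted p = 0.0426).

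**Figure D2:**
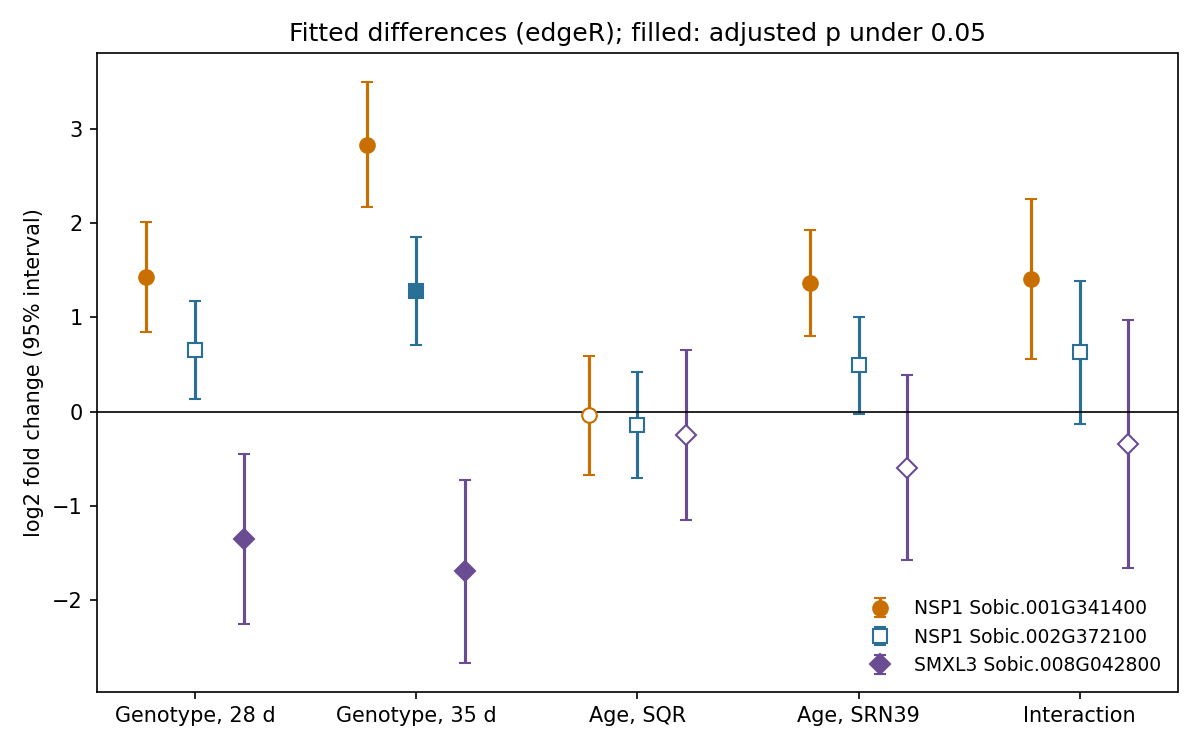
Log2 fold changes (vertical axis) of the 3 genes from the edgeR model in 5 comparisons: genotype (SRN39 minus SQR) at each age, age (35 d against 28 d) within SQR and within SRN39, and their interaction; error bars are 95% intervals and filled symbols passed an adjusted p of 0.05. Sobic.001G341400 passed in 4 comparisons, SMXL3 in 2 and Sobic.002G372100 in 1, and in SQR every interval for age spans 0. Of all tested genes, 17.4, 35.6, 2.6, 30.9 and 7.34% passed in these comparisons, in the order given. The interaction of Sobic.001G341400 was lost in 14 of 23 alternative fits, and the call of SMXL3 at 28 d in 8 of 24.

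The NSP1 genes did not differ between genotypes by the same factor. This was measured as the reads of Sobic.001G341400 in percent of the reads of both NSP1 genes, a share within each library that does not depend on how libraries are scaled. The share was 26.1, 30.5, 23.4 and 27.01% in SQR at 28 d and 28.4, 29.7 and 27.9% in SQR at 35 d. It was 37.5, 39.9, 40.7 and 37.3% in SRN39 at 28 d and 52.97, 56.2, 52.0 and 53.7% in SRN39 at 35 d. Sobic.001G341400 thus gave the minority of NSP1 reads in every SQR library and in SRN39 at 28 d, and the majority in each SRN39 library at 35 d, while the SQR ages overlapped.

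The mean share was 26.8% ± 2.92 (SD, n = 4) in SQR at 28 d, 28.7% ± 0.924 (SD, n = 3) in SQR at 35 d, 38.9% ± 1.72 (SD, n = 4) in SRN39 at 28 d and 53.7% ± 1.80 (SD, n = 4) in SRN39 at 35 d. Single libraries gave 137 to 1650 NSP1 reads. The 95% Wilson intervals, which cover counting error only, ran from 20.3 to 35.0% for the library with the fewest reads and from 51.3 to 56.1% for that with the most.

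The log2 ratio of Sobic.001G341400 to Sobic.002G372100 was higher in SRN39 by 0.80 at 28 d and by 1.53 at 35 d, and higher at 35 d than at 28 d by 0.87 in SRN39 and by 0.14 in SQR. The first 3 of these differences each had p = 0.0286 in an exact two-sided permutation test, the smallest p these group sizes allow, and 0.0343 after Benjamini-Hochberg adjustment over 6 tests. That in SQR had an exact p of 0.343. Over both ages the genotype difference of the log2 ratio was 1.17, a fold of 2.25 (exact permutation of genotype within age, p = 0.000408, the smallest of 2450 relabelings, adjusted p = 0.00245). The age difference of the ratio was larger in SRN39 than in SQR by 0.73 on the log2 scale. In a permutation test added after the values were seen, which permuted the residuals of genotype and age between genotypes within each age, this had p = 0.000816.

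**Figure D3:**
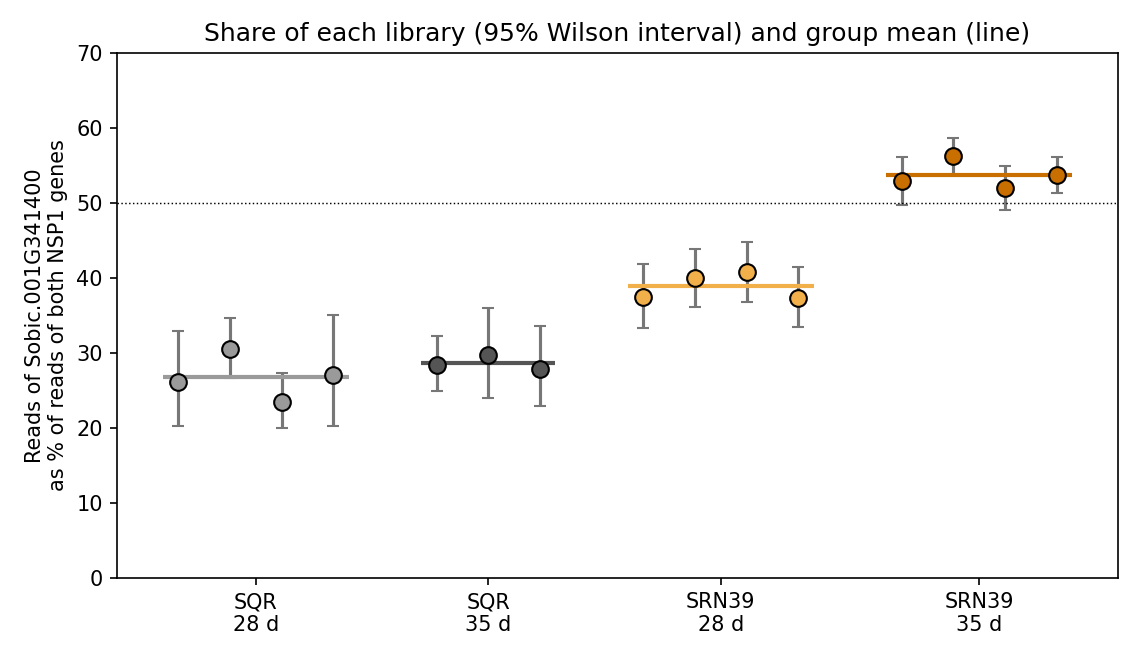
Reads of Sobic.001G341400 as a percentage (vertical axis) of the reads of both NSP1 genes in each of the 15 libraries, with 95% Wilson intervals (error bars) and group means (coloured lines); the dotted line marks equal reads. The 7 SQR libraries lie between 23.4 and 30.5%, SRN39 at 28 d between 37.3 and 40.7% and SRN39 at 35 d between 52.0 and 56.2%.

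Within a group, the NSP1 genes went up and down together from library to library. The log2 ratio had an SD of 0.214 in SQR at 28 d, 0.065 in SQR at 35 d, 0.104 in SRN39 at 28 d and 0.105 in SRN39 at 35 d. Counting error alone would give about 0.211, 0.185, 0.126 and 0.082. The levels themselves were more variable: the SD of the log2 CPM of Sobic.001G341400 was 0.474, 0.673, 0.202 and 0.308 in the same groups and that of Sobic.002G372100 was 0.376, 0.701, 0.118 and 0.212. The libraries with the highest SQR levels, replicate 2 at 28 d and replicate 1 at 35 d, were the same for each NSP1 gene.

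Deviations of log2 CPM from the group means correlated between the NSP1 genes with Pearson's r = 0.946 and Spearman's rho = 0.946 over 15 libraries. This correlation was computed after the values were seen. An exact permutation of libraries within groups gave p = 2.41e-05 for each, or 0.000506 after adjustment over 21 gene pairs. It was 0.910 without the 2 libraries farthest from the median, 0.952 over the 7 SQR libraries (exact permutation p = 0.0139) and 0.965 over the 8 SRN39 libraries (exact permutation p = 0.00174). Of the 18472 other genes, Sobic.002G372100 ranked 2 by this r with Sobic.001G341400, against a median r of 0.006, and 224 genes (1.21%) had r above 0.8. The sequences of the NSP1 genes were not compared here, so the part that reads shared by the 2 genes could have in their joint variation was not tested.

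SMXL3 did not share these deviations, with r = -0.001 (rho = -0.05) against Sobic.001G341400 and 0.039 (rho = 0.054) against Sobic.002G372100 over the 15 libraries (exact permutation p = 0.997 and 0.896). Deviations of Sobic.001G341400 had r = 0.72 (rho = 0.67) with those of LGS1 and 0.52 (rho = 0.61) with those of CCD8. Neither passed the adjustment over 21 pairs (adjusted permutation p = 0.0617 and 0.158), and without the 2 farthest libraries r was 0.524 and 0.441.

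**Figure D4:**
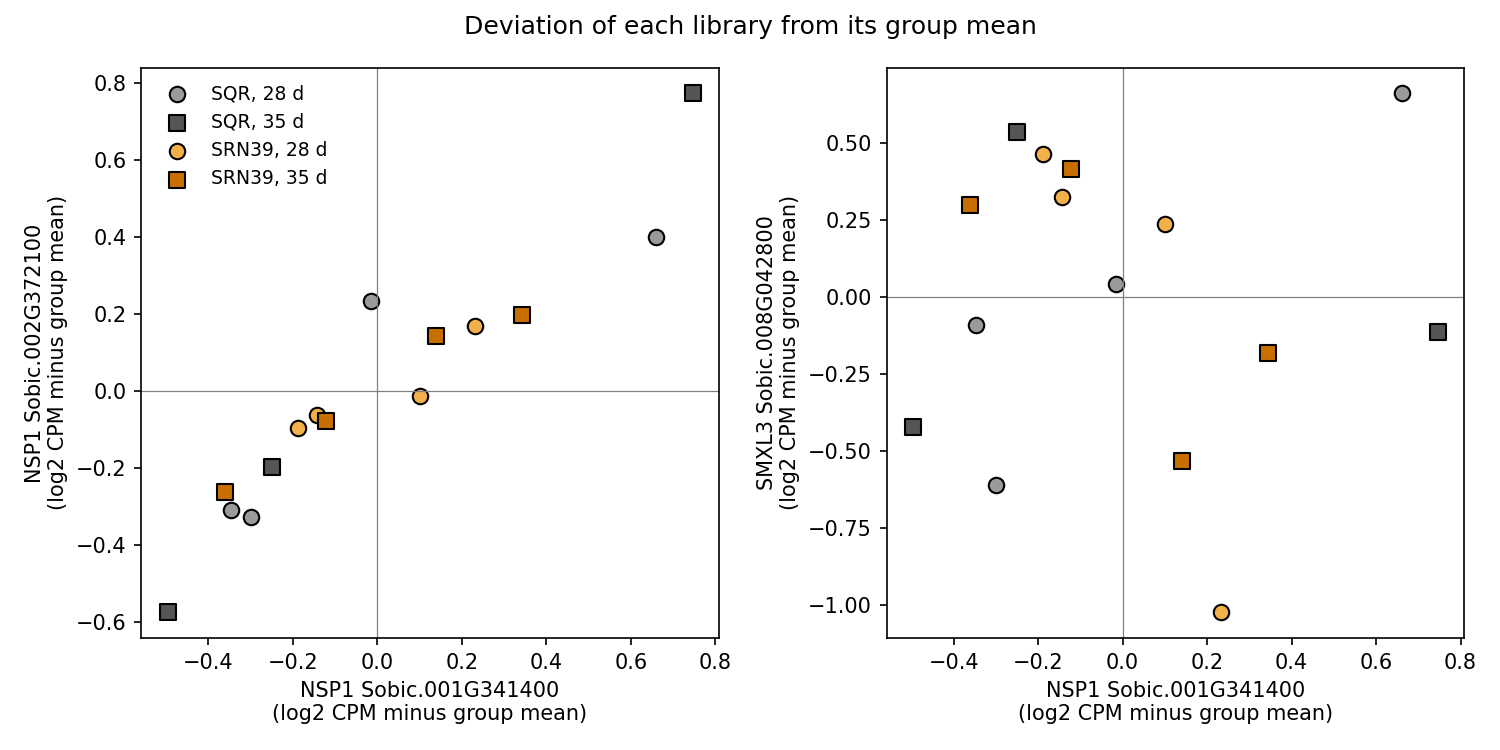
Log2 CPM of each of the 15 libraries minus its group mean for NSP1 Sobic.001G341400 (horizontal axes) against NSP1 Sobic.002G372100 (left) and SMXL3 Sobic.008G042800 (right), with symbols by genotype and age. The NSP1 genes line up (r = 0.946), and SMXL3 shows no such line (r = -0.001).

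SMXL3 was a gene of few reads. Sobic.008G042800 had 16, 43, 34 and 8 counts in SQR at 28 d and 22, 17 and 34 counts in SQR at 35 d, or 1.97, 3.44, 2.18 and 1.33 CPM and 1.68, 1.33 and 2.74 CPM. In SRN39 it had 10, 3, 10 and 13 counts at 28 d and 8, 6, 10 and 5 counts at 35 d, or 1.06, 0.309, 0.985 and 1.18 CPM and 0.817, 0.481, 0.739 and 0.340 CPM. The 7 SQR libraries held 174 counts and the 8 SRN39 libraries 65. LGS1, which is deleted in SRN39, was still read at 0.455 to 1.63 CPM in the SRN39 libraries. The SMXL3 levels in SRN39 lay in or below that range. Whether part of the SMXL3 reads in SRN39 is background was not tested. All SQR libraries were above all SRN39 libraries, from 1.33 CPM upwards against 1.18 CPM downwards, and the ages overlapped within each genotype. The genotypes did not overlap for 8.67% of tested genes. SRN39 replicate 2 at 28 d, with 3 counts, lay apart from the other libraries of its group on the log2 scale.

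The group means of SMXL3 were 2.23 ± 0.886 (SD, n = 4) and 1.92 ± 0.736 (SD, n = 3) CPM in SQR at 28 and 35 d, and 0.884 ± 0.392 (SD, n = 4) and 0.594 ± 0.222 (SD, n = 4) CPM in SRN39. Its coefficient of variation within groups was 37.4 to 44.3%, of which counting error alone would give 21.1 to 39.1%. The genotype difference was -1.35 (SE 0.43, edgeR adjusted p = 0.037) at 28 d, 2.54-fold lower in SRN39 with a 95% interval of 1.36 to 4.75. At 35 d it was -1.69 (SE 0.46, edgeR adjusted p = 0.0087), 3.24-fold lower with an interval of 1.65 to 6.35. Of tested genes, 5.88% and 6.05% had a log2 fold change further below 0.

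For SMXL3 at 28 d, leaving out replicate 1, 2 or 3 of SQR or of SRN39 at that age ended the call (log2 difference -1.43 to -1.06, adjusted p up to 0.145), as did replicate number as a block (-1.34, adjusted p = 0.0696). At 35 d the call ended without replicate 3 of SQR (-1.35, adjusted p = 0.0533). With each library thinned to the depth of the smallest, neither passed (-1.24, adjusted p = 0.107 at 28 d, and -1.43, adjusted p = 0.0526 at 35 d). Age gave -0.25 (edgeR adjusted p = 0.76) in SQR and -0.59 (SE 0.47, edgeR adjusted p = 0.35) in SRN39, the latter 1.51-fold lower at 35 d with an interval from 2.99-fold lower to 1.31-fold higher, and the interaction was -0.35 (edgeR adjusted p = 0.78).

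The 3 genes were thus separated by genotype over both ages, which was so for 8.67% of tested genes. At 35 d alone, where all 3 also separated the genotypes, the share was 36.6%. As a share of the variation in log2 CPM over the 15 libraries, genotype took 76.2% in Sobic.001G341400, 64.9% in Sobic.002G372100 and 64.5% in SMXL3, against a median of 15.6% over all tested genes. Age took 7.67, 1.62 and 3.31% in the same order, and the spread of replicates 8.24, 26.1 and 31.8%, against medians of 14.3 and 43.7%. The 3 genes were chosen with earlier results of these data known, and SMXL3 passed the filter mainly on its SQR libraries. These comparisons with all tested genes are therefore a description and not a test.

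The other strigolactone genes that the study names did not all move with NSP1. CCD8 (Sobic.003G293600), a carotenoid cleavage dioxygenase that acts early in strigolactone synthesis, had 4.52 ± 1.15 (SD, n = 4) CPM in SQR and 15.4 ± 9.60 (SD, n = 4) CPM in SRN39 at 28 d, and 5.07 ± 1.96 (SD, n = 3) and 25.8 ± 8.33 (SD, n = 4) CPM at 35 d. LBO (Sobic.003G418000), which in Arabidopsis encodes an oxidoreductase late in the pathway, had 14.4 ± 1.31 (SD, n = 4) and 27.5 ± 2.43 (SD, n = 4) CPM at 28 d. At 35 d LBO had 9.31 ± 1.63 (SD, n = 3) CPM in SQR and 15.3 ± 4.91 (SD, n = 4) CPM in SRN39, and these groups overlapped. CCD7 (Sobic.006G170300), the dioxygenase that acts just before CCD8, stayed between 0.273 and 2.57 CPM in all libraries. Of these 4 genes with LGS1, CCD8 and LBO were called higher in SRN39 at each age, LGS1 was called lower, and CCD7 was not called. Among all tested genes, 17.4% were called for genotype at 28 d and 35.6% at 35 d. For age in SRN39, LBO fell by 0.85 on the log2 scale (edgeR adjusted p = 0.0055), where Sobic.001G341400 rose, and CCD8 had 0.75 (edgeR adjusted p = 0.12). None of the 4 was called for age in SQR or for the interaction. The shares of all tested genes called were 30.9% for age in SRN39, 2.6% for age in SQR and 7.34% for the interaction. LBO was also read lower at 35 d in SQR, 0.649-fold with an interval of 0.466 to 0.903. Its interaction was -0.22 on the log2 scale. The fall of LBO was thus not shown to be particular to SRN39. LGS1 in SQR was 0.496-fold at 35 d (interval 0.308 to 0.798), with overlapping ages. CCD7 (1.19-fold) and CCD8 (1.14-fold) went the other way in SQR, with intervals that include no change.

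Over the 15 libraries, where genotype and age are part of every correlation, log2 CPM of the NSP1 genes had r = 0.954 with each other. CCD8 had r = 0.919 with Sobic.001G341400, rank 145 of 18472 genes, and r = 0.845 with Sobic.002G372100, rank 236. The genes most like Sobic.001G341400 were Sobic.007G206200 (r = 0.978) and Sobic.003G267900 (r = 0.968), which the sources used here do not name. The gene most like Sobic.002G372100 was Sobic.001G080300 (r = 0.958), whose closest Arabidopsis protein is a peroxidase. SMXL3 was most like Sobic.003G353400 (r = 0.927) and Sobic.005G219900 (r = 0.919), and had r = -0.770 and -0.677 with the NSP1 genes. All these correlations are descriptions of the same 15 libraries.

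Calls among the genes listed beside the 3 are given as a description, to be read against the 17.4% of all tested genes called for genotype at 28 d and the 35.6% called at 35 d. Of the 10 tested genes nearest to each in the order of the table, 5 on each side, those of Sobic.001G341400 had 2 calls for genotype at 28 d (1 higher in SRN39 and 1 lower) and 5 at 35 d (2 higher and 3 lower). Those of Sobic.002G372100 had 0 calls at 28 d and 3 at 35 d, all 3 lower in SRN39, opposite to the NSP1 gene itself. Those of SMXL3 had 4 calls at 28 d (2 higher and 2 lower) and 2 at 35 d (1 higher and 1 lower). Neither gene next to SMXL3 or Sobic.002G372100 was called for genotype at either age, and of those next to Sobic.001G341400 the following gene was higher in SRN39 at 35 d (log2 0.85, edgeR adjusted p = 0.011).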

How the data were processed

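The authors pooled technical replicates, trimmed the 3′ mRNA-Seq reads, mapped them to the BTx623 sorghum reference with STAR and deposited reads per gene, which are whole-number counts without normalization. Reads of SQR and SRN39 were thus mapped to the genome of another variety. The STAR and annotation versions were not given in the sources used here. A further column (1) without a matching sample description, named like the SQR libraries of 35 d, was left out.

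In R 4.3.3 with edgeR 4.0.16, genes above 1 CPM in 3 or more libraries were tested, TMM factors were applied and the 4 group means were estimated in 1 quasi-likelihood fit (two-sided, Benjamini-Hochberg over 18473 genes, threshold 0.05). Log2 CPM used a prior count of 2. CPM were computed on the scaled library sizes. Exact permutation tests were run in Python with numpy 2.4.6. The edgeR script was tested on simulated data. Biological replicates are those of the study. The edgeR p-values weigh a difference against the spread between replicates, estimated with information from all tested genes. The exact permutation p-values compare it with relabelings of the libraries. The labels do not say whether replicate numbers pair libraries. Same-numbered libraries had correlations of deviations from -0.219 to 0.172. Differently numbered libraries were not set beside them, so this range does not decide whether the numbers pair libraries.

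Alternatives were limma-voom (limma 3.58.1) with quantile normalization, DESeq2 1.42.0, RLE factors, library totals, no filter, the filterByExpr filter of edgeR, separate fits for the groups compared, a block of replicate numbers, libraries thinned to 6369710 counts, and omission of each library in turn.

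The members and lists were chosen with earlier results of these data known. Genes named are the 3 members, the 4 other strigolactone genes of the study and the 2 genes most correlated with each member, of which at most 2 unnamed IDs per direction are printed. The names of the strigolactone genes come from the study's supplementary material. Of 13 gene IDs looked up, 0 were found in the RefSeq gene table, so sequences, promoter motifs, further pathway lists and tissue markers were not used here.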

Additional observations from a re-analysis of the deposited data

Results flagged for a closer look

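The age difference of NSP1 Sobic.001G341400 differed between the genotypes by the test of the difference itself: it was larger in SRN39 than in SQR by 1.41 on the log2 scale (edgeR adjusted p = 0.0425, 95% interval 0.56 to 2.25). The 4 SRN39 libraries of 35 d were all above the 4 of 28 d, and the SQR ages overlapped. The SRN39 ages did not overlap for 35.8% of tested genes. For the interaction, 7.34% of tested genes were called. Across the alternatives and left-out libraries the adjusted p ran from 0.00541 to 0.0944, and the call was lost in 14 of these 23 fits.

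The level of SMXL3 in SRN39 replicate 2 at 28 d stood apart from the other 3 libraries of its group on the log2 scale: its log2 CPM was -1.05, and its gap to the nearest library was 0.847 of the group's range, above Dixon's 95% critical value for 4 libraries. On the linear CPM scale the gap was 0.773 of the range and below that value. The library held 3 SMXL3 counts, and without it the genotype difference of SMXL3 at 28 d was -1.06 (edgeR adjusted p = 0.113). It was the only such library in the 9 groups of 4 libraries looked at on both scales for the 3 genes, and there was none in the 3 groups looked at for the log2 ratio of the NSP1 genes. Chance alone passes this value in about 1 of 20 groups, and SQR at 35 d, with 3 libraries, was not tested.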

How the results depend on the processing

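The genotype differences of Sobic.001G341400 at both ages, its age difference in SRN39 and the genotype difference of Sobic.002G372100 at 35 d kept direction and call in all 24 alternatives each. At 28 d Sobic.002G372100 passed with DESeq2 (0.68) and with only the groups compared (0.67), and leaving out 1 library gave 0.55 to 0.80. SMXL3 at 28 d did not pass with the replicate block (-1.34) or after thinning (-1.24). In the 15 fits without 1 library it ran from -1.51 to -1.06 and did not pass in 6. At 35 d SMXL3 did not pass after thinning (-1.43) or in 1 of 15 fits without 1 library, which ran from -1.90 to -1.35. For age in SRN39, Sobic.002G372100 passed with library totals (0.77) and with only the groups compared (0.49), range 0.42 to 0.57 without 1 library. The interaction of Sobic.001G341400 did not pass in 14 of 23 alternatives: library totals (1.49), the replicate block (1.40) and 12 of 15 fits without 1 library. Its range was 1.12 to 1.89, and the interaction of Sobic.002G372100 ran from 0.38 to 1.13. The replicate block changed no other call. Age differences in SQR, none called, changed sign: Sobic.001G341400 to 0.16 with library totals and 0.050 after thinning (range -0.53 to 0.25), Sobic.002G372100 to 0.067 with library totals (range -0.63 to 0.11), and SMXL3 ranged from -0.59 to 0.042. The log2 ratio of the NSP1 genes at 35 d ran from 1.48 to 1.57 without 1 library, with adjusted exact permutation p up to 0.12 where 1 library fewer raises the smallest p possible. Library totals moved the median log2 age difference of all tested genes from 0.06 to 0.28 in SQR and from 0.04 to 0.31 in SRN39, and the calls from 198 higher and 282 lower to 499 and 210 in SQR and from 2898 and 2806 to 4680 and 1584 in SRN39. Calls for age in SQR numbered 480, against 1385 with DESeq2, 103 with the replicate block, 11 with only the groups compared and 62 to 2073 without 1 library. Interaction calls numbered 1355, against 712 with the block and 836 to 1951 without 1 library. The cause of these changes was not tested. SMXL3 rests on the fewest reads, 3 to 43 counts per library.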
